A study of Mus musculus with 6 samples.

Results

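The genes described here are 38 members of Toll-like receptor (TLR) and nuclear factor κB (NF-κB) signaling in mouse lung tumors. Members were chosen by name, from the receptors, adaptors, kinases, transcription factor subunits and inhibitors of the pathway, and all 38 were found among the 31130 genes of the deposited tables. Tumor tissue was compared between 3 mice of the lung cancer (LC) model and 3 mice of the interstitial pneumonia and lung cancer (IP + LC) model. All were female C57BL/6 mice of 6 to 8 weeks, labelled WT, and all were injected on day 14 with Lewis lung carcinoma (LLC) cells, a cancer line of mouse lung, into the left lung. The IP + LC mice had been given bleomycin, which damages alveolar tissue and is followed by fibrosis, at 2.0 mg/kg on day 0 by oropharyngeal aspiration. The LC mice had no bleomycin. The injected cells were of 1 line, and tissue was taken on day 21. The comparison asks how lung injured by bleomycin changes gene expression in the tumor.

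TLRs are sensors of microbial molecules and of molecules released by damaged cells. Receptors at the cell surface bind lipids and proteins, and those in endosomes bind nucleic acids. Nearly all of them pass the signal through the adaptor MYD88 to IRAK kinases and TRAF6, and from there to the IκB kinase (IKK) complex. IKK marks the inhibitory IκB proteins for destruction, which frees dimers of NF-κB to enter the nucleus and switch on cytokine genes. NF-κB also switches on several of its own subunits and inhibitors, which makes these genes a common readout of the pathway, and in the lung both leukocytes and epithelial cells use it.

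Of the 38 members, 33 passed the filter on low counts. In the IP + LC tumors 13 members were higher, none was lower and 20 were not called at an adjusted p below 0.1 (edgeR's quasi-likelihood test, Benjamini-Hochberg adjustment over all 11240 genes tested). Among all genes tested, 16.8% were higher, 19.6% were lower and 36.4% were called in either direction. The higher members were the NF-κB subunits Nfkb1, Nfkb2 and Relb, the IκB family genes Nfkbie, Nfkbiz and Bcl3, the feedback genes Tnfaip3 and Tnip1, the receptors Tlr2, Tlr6 and Tlr12, the adaptor Myd88 and the kinase Irak4. The log2 fold change of IP + LC over LC was positive for 27 of the 33 tested members and negative for 6, with a median of 0.61, and the median over all genes tested was 0.0178. Tlr6 and Tlr12 passed the filter only through the IP + LC libraries and so had to differ, and the counts over those that passed are a description. The filter was met in every LC library by 26 members, of which 10 were higher. The sum of all 38 members was 1238, 1409 and 1428 CPM (UMIs per 1e6 UMIs on tested genes, after TMM scaling) in the LC tumors and 1774, 2012 and 1954 CPM in the IP + LC tumors.

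**Figure D1:**
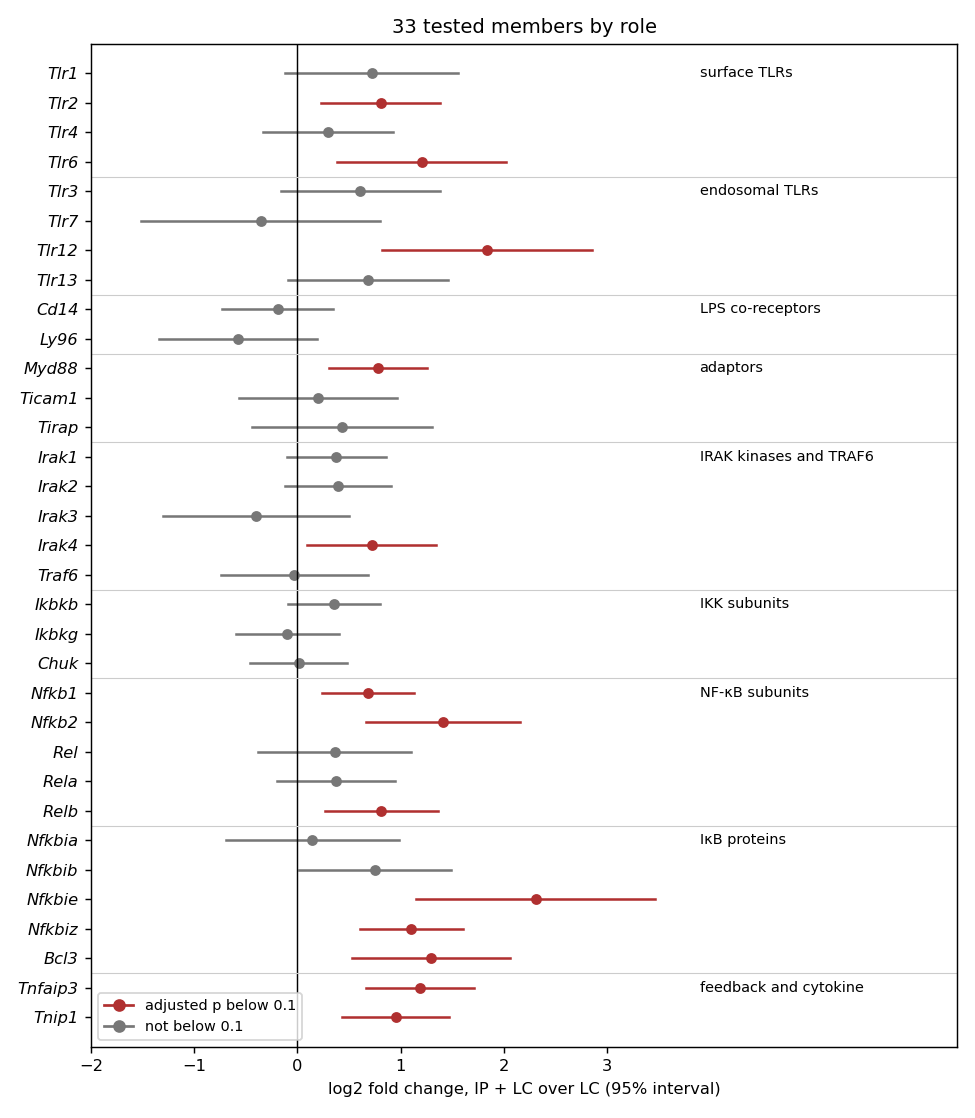
The log2 fold change of IP + LC over LC is plotted on the x axis for each of the 33 tested members, grouped by role on the y axis, with its 95% interval as a line. Points in red are the 13 members with an adjusted p below 0.1, all to the right of 0 and from 0.69 for Nfkb1 to 2.31 for Nfkbie, and points in grey are the 20 members that were not called.

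The libraries held 592733, 1379759 and 1356381 unique molecular identifiers (UMIs, each standing for 1 captured RNA molecule) in LC replicates 1 to 3, and 1344042, 1631066 and 1336919 UMIs in IP + LC replicates 1 to 3. A gene with 3 UMIs corresponds to 1.75 to 5.17 CPM, so members near that level are weakly measured, above all in LC replicate 1. That library also stood apart in several members, with high Nfkb2, Nfkbie, Bcl3, Nfkbib and Rela and low Nfkbia. Without it, 18 of 34 tested members were higher, including all 13 and also Tnf. Higher calls rose over all genes too, to 3324 of 11748 tested, from 1885 of 11240 with all tumors. The labels name lung cancer cells, but the tumors held RNA of many host cells. All 6 endothelial markers, all 5 type 1 alveolar markers and all 5 airway markers were measured, and every one of these was lower in the IP + LC tumors. All 4 smooth muscle markers, 4 of 5 type 2 alveolar markers and 1 of 3 tested conventional dendritic cell markers were lower too, and none was higher. Of 5 fibroblast markers, Col1a1 and Col1a2 were higher and 3 were lower, and of 5 T cell markers 1 was lower and none was higher. Leukocyte markers (Ptprc, Cd53, Laptm5 and Coro1a) summed to 844 to 969 CPM in the LC tumors and 967 to 1320 CPM in the IP + LC tumors, with 1 of 4 higher. Of 10 macrophage markers 4 were higher and 1, Lyz2, was lower, and all 8 alveolar macrophage markers were lower, with sums of 1734 to 2195 against 256 to 494 CPM. Chil3 prevailed in these sums, at 1102 to 1316 CPM in the LC tumors and 134 to 312 CPM in the IP + LC tumors. Of 5 monocyte markers, Ly6c2, Ccr2, Plac8 and Vcan were higher, each without overlap, and Chil3, which alveolar macrophages share, was lower. No list of markers had a gene at 0 UMIs in every library. Their part in the results on the members was not tested. In such bulk tissue, fewer cells of a type and less RNA per cell cannot be told apart.

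The κB motif, the 10-base sequence that NF-κB dimers bind, was searched on both strands in RefSeq promoter windows that run from 250 bases before to 50 bases after each gene's start. A window was given for 29 members and not for Tlr4, Tlr7, Cd14, Ly96, Ticam2, Ikbkb, Nfkb1, Relb and Nfkbiz. The motif was found in 10 of the 29 (34.5%), against 9.55% of 27025 genes with a window and 12.6% of the 8737 of these that were tested here. The 10 were Nfkb2, Nfkbie, Bcl3, Tnfaip3, Tnip1, Tlr2, Nfkbia, Rel, Irak1 and Tlr3, and 6 of them were higher in the IP + LC tumors. Of the 19 members with a window and no motif in it, 15 were tested and 4 were higher (Tlr6, Tlr12, Myd88 and Irak4), while Tlr5, Tlr8, Tlr9 and Tnf were not tested. Among all tested genes with a window, 18.6% of those with the motif and 17.0% of those without it were higher. These are matches of letters and not measured sites of binding.

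The windows of the 6 higher members that hold the motif are printed here because they let the gene with the motif be read beside its level, and Nfkbia is added as a member with the motif that was not called. All are from RefSeq on GRCm38.p6, 5′ to 3′ on the strand of the gene, and capitals mark the κB motif, in a longer run where matches overlap. They lie at chr19:46304487-46304786 (plus strand) for Nfkb2, which has further starts downstream, chr17:45555450-45555749 (plus) for Nfkbie, chr7:19822706-19823005 (minus) for Bcl3, chr10:19015361-19015660 (minus) for Tnfaip3, chr11:54962891-54963190 (minus) for Tnip1, chr3:83841559-83841858 (minus) for Tlr2 and chr12:55492598-55492897 (minus) for Nfkbia. The motif begins 39 and 11 bases before the start in Nfkb2, 106 before it in Nfkbie, 125 and 12 before it in Tnfaip3, 58 before it in Tnip1, 173 and 8 before it in Tlr2 and 29 before it in Nfkbia. In Bcl3 it begins at base 3 of the transcript.
Nfkb2: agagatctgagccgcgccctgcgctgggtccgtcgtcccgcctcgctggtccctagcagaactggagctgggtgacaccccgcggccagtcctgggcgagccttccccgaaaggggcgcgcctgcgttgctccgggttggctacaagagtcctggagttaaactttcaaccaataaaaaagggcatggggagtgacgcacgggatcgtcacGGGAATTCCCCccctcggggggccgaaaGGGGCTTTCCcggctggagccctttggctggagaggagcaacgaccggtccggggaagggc
Nfkbie: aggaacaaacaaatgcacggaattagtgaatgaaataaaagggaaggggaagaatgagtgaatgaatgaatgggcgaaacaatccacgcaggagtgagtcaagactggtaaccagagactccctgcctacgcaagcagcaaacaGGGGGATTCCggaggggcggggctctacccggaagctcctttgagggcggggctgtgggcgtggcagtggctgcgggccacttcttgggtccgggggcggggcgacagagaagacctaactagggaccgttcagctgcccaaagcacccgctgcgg
Bcl3: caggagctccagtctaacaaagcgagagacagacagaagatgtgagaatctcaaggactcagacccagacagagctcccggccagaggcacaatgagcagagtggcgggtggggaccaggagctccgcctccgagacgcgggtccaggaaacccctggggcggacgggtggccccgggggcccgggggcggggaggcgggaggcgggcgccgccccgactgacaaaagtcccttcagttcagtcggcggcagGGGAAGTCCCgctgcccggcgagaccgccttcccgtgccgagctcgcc
Tnfaip3: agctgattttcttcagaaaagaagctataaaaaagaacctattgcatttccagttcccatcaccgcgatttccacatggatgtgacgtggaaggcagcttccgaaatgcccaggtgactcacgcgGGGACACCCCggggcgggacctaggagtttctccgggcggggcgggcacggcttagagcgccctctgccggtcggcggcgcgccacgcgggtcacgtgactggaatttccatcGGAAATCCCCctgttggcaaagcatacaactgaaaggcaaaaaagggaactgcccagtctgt
Tnip1: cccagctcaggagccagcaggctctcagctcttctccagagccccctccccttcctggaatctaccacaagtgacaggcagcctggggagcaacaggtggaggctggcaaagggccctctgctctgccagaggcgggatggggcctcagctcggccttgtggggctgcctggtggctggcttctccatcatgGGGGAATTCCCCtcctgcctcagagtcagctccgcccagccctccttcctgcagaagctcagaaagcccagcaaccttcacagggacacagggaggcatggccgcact
Tlr2: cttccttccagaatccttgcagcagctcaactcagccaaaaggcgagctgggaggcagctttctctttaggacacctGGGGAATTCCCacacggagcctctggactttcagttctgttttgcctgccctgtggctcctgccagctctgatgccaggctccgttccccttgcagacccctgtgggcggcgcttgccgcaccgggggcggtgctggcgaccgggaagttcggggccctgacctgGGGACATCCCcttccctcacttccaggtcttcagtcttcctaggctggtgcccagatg
Nfkbia: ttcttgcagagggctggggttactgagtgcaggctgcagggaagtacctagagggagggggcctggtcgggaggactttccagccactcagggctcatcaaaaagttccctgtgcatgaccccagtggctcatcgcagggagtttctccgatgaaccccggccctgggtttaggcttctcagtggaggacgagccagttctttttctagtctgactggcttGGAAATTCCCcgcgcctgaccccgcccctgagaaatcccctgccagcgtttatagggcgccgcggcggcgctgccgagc

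Among the 5 surface receptors, 4 were tested and 2 were higher in the IP + LC tumors. Tlr2 (chr3:83836272-83841767, minus strand) encodes the receptor that senses bacterial lipoproteins as a dimer with TLR1 or TLR6. Its level was 25.8, 24.3 and 23.7 CPM in LC replicates 1 to 3 and 31.2, 43.8 and 53.7 CPM in IP + LC replicates 1 to 3. The groups did not overlap, although the lowest IP + LC tumor was close to the LC tumors, and the fitted level was 1.75-fold higher (log2 fold change 0.81, SE 0.26, adjusted p = 0.0441 by edgeR). Tlr6 (chr5:64952031-64960097, minus), a partner of TLR2, had 3, 5 and 5 UMIs in the LC libraries and 14, 19 and 12 UMIs in the IP + LC libraries, a 2.3-fold higher level (log2 fold change 1.20, SE 0.36, adjusted p = 0.0375 by edgeR). No LC library reached the filter for Tlr6. Tlr1, the other partner, was measured at 22.4, 13.3 and 7.63 CPM in the LC tumors and 18.1, 21.6 and 26.1 CPM in the IP + LC tumors. These overlapped through LC replicate 1, and the adjusted p was 0.182, or 0.0172 without that library (log2 fold change 1.06).

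Tlr4, the receptor of bacterial lipopolysaccharide (LPS), was at 15.5, 18.0 and 16.1 CPM in the LC tumors and 18.1, 17.5 and 26.1 CPM in the IP + LC tumors (log2 fold change 0.29, 95% interval -0.34 to 0.92). Its co-receptors were not called either. Cd14, which hands LPS to the receptor and is abundant on monocytes and macrophages, was at 70.6, 77.6 and 55.9 CPM in the LC tumors and at 53.7, 74.7 and 49.4 CPM in the IP + LC tumors (log2 fold change -0.19, adjusted p = 0.584 by edgeR). Ly96, which encodes the LPS-binding partner MD-2, ranged from 9.40 to 17.2 CPM in the LC tumors and from 7.99 to 10.2 CPM in the IP + LC tumors (log2 fold change -0.58, adjusted p = 0.24 by edgeR). Tlr5, the flagellin receptor, had at most 2 UMIs in any library and was not tested. Per 100 UMIs of Cd14 in the same tumor, Tlr2 had 36.6, 31.3 and 42.4 UMIs in the LC tumors and 58.1, 58.6 and 109 UMIs in the IP + LC tumors, without overlap. The call of Tlr2 was lost when LC replicate 2 or 3 or IP + LC replicate 2 or 3 was left out (adjusted p of 0.136, 0.121, 0.129 and 0.139), and that of Tlr6 when LC replicate 2 or 3 or IP + LC replicate 1 or 2 was left out (adjusted p of 0.158, 0.121, 0.124 and 0.159).

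Among the 6 endosomal receptors, 4 were tested and Tlr12 alone was higher. Tlr12 (chr4:128615443-128618619, minus), a mouse receptor of protozoan profilin, had 2, 2 and 5 UMIs in the LC libraries and 15, 22 and 12 UMIs in the IP + LC libraries. The groups did not overlap, and the fitted level was 3.57-fold higher (log2 fold change 1.84, SE 0.45, adjusted p = 0.0173 by edgeR), with no LC library past the filter. Counting error alone gave a ratio of pooled UMIs between 2.04 and 9.73 for Tlr12 and between 1.42 and 5.40 for Tlr6 (exact 95% intervals). Tlr3, which senses double-stranded RNA, was at 13.8, 12.5 and 17.8 CPM in the LC tumors and 14.5, 22.8 and 30.5 CPM in the IP + LC tumors. Tlr13, which senses bacterial ribosomal RNA, was at 17.2, 10.2 and 16.9 CPM in the LC tumors and 15.2, 26.3 and 27.6 CPM in the IP + LC tumors. For both, IP + LC replicate 1 lay among the LC tumors and the other two IP + LC tumors lay above them. The adjusted p was 0.218 for Tlr3 and 0.171 for Tlr13, which was called without LC replicate 1 (adjusted p = 0.0686). Tlr7, a sensor of single-stranded RNA that plasmacytoid dendritic cells, B cells and macrophages carry, had 9, 10 and 7 UMIs in the LC libraries and 4, 16 and 11 in the IP + LC libraries (log2 fold change -0.35, 95% interval -1.51 to 0.80). Tlr8 and Tlr9 had at most 2 and 1 UMIs in any library, so a difference in them was not detectable at this depth. Among markers of cells that use Tlr7 and Tlr9, 4 of 5 B cell markers were lower, with sums of 200 to 291 CPM in the LC tumors and 37.7 to 148 CPM in the IP + LC tumors. Of 5 plasmacytoid dendritic cell markers 1, Cox6a2, passed the filter and was lower, and it made up most of the sum in the LC tumors. The sums were 75.8 to 117 CPM in the LC tumors and 26.8 to 35.6 CPM in the IP + LC tumors, so their difference is mainly that of Cox6a2. The receptor genes Siglech and Ccr9 of these cells had means of 6.64 and 6.27 CPM in the LC tumors and 6.50 and 6.25 CPM in the IP + LC tumors. A fall of plasmacytoid dendritic cells is thus not shown. The part of these markers in the levels of the receptors was not tested.

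Among the 4 adaptors, Myd88 was higher. Myd88 (chr9:119335934-119341411, minus), the adaptor shared by nearly all TLRs and by the IL-1 receptor family, was at 67.2, 49.4 and 49.2 CPM in the LC tumors and 87.7, 100.4 and 92.2 CPM in the IP + LC tumors. Every IP + LC tumor was above every LC tumor, and the fitted level was 1.72-fold higher (log2 fold change 0.78, SE 0.21, adjusted p = 0.0241 by edgeR). The call was lost without LC replicate 2 (adjusted p = 0.108) and without IP + LC replicate 2 (adjusted p = 0.11). Of the exonic bases of Myd88, 11.3% overlap Acaa1a on the opposite strand, and the use of the strand in counting is not stated. Ticam1, which encodes the adaptor TRIF of TLR3 and TLR4, was between 8.47 and 14.9 CPM in the LC tumors and between 10.2 and 15.2 CPM in the IP + LC tumors. Its log2 fold change was 0.20 (95% interval -0.57 to 0.97). Tirap, which bridges TLR2 and TLR4 to MYD88, had 3 UMIs in LC replicate 1 and 20 to 33 UMIs in the other five libraries, so that LC replicate 1 set most of its spread (log2 fold change 0.43, adjusted p = 0.441 by edgeR). Ticam2, which encodes the bridging adaptor TRAM, had 1, 1 and 2 UMIs in the LC libraries and 3, 4 and 4 UMIs in the IP + LC libraries and was not tested. Its ratio of pooled rates was 2.12, with a counting interval from 0.629 to 9.14.

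Downstream of MYD88, Irak4 was higher and the other IRAK kinases and Traf6 were not called. Irak4 (chr15:94543643-94581815, plus), the kinase that MYD88 binds, was at 12.1, 17.2 and 20.3 CPM in the LC tumors and 22.5, 30.4 and 31.9 CPM in the IP + LC tumors. The groups did not overlap, LC replicate 3 and IP + LC replicate 1 being the nearest, and the log2 fold change was 0.72 (SE 0.28, adjusted p = 0.0835 by edgeR). This was the weakest of the 13 calls, and it was lost when LC replicate 2 or 3 or IP + LC replicate 2 or 3 was left out (adjusted p of 0.2, 0.104, 0.216 and 0.197). Irak1, the kinase that IRAK4 activates, was between 80.9 and 113 CPM in the LC tumors and between 107 and 131 CPM in the IP + LC tumors (log2 fold change 0.38, adjusted p = 0.218 by edgeR). Irak2, a kinase that sustains the signal, did not overlap between the groups, at 20.7, 32.1 and 34.7 against 39.2, 37.9 and 42.1 CPM, but was not called (adjusted p = 0.234 by edgeR). Irak3, which encodes the inhibitory kinase IRAK-M, had 6, 12 and 15 UMIs in the LC libraries and 6, 19 and 12 UMIs in the IP + LC libraries. Its log2 fold change was -0.40 (95% interval -1.30 to 0.50). Traf6, the ubiquitin ligase at which the MYD88 signals meet, had a mean of 18.8 CPM in either group (SD 4.98 and 5.40, n = 3 each).

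None of the 3 IKK genes was called. Ikbkb, the kinase subunit of the canonical pathway, was at 41.3, 52.5 and 42.4 CPM in the LC tumors and 58.0, 61.3 and 56.6 CPM in the IP + LC tumors, without overlap (log2 fold change 0.36, 95% interval -0.09 to 0.80, adjusted p = 0.213 by edgeR). Chuk, which encodes the subunit IKKα and also serves the non-canonical pathway, had log2 fold change 0.01 with an interval from -0.46 to 0.48. Ikbkg, the regulatory subunit NEMO, had log2 fold change -0.10 with an interval from -0.60 to 0.40.

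Of the 5 genes of NF-κB subunits, Nfkb1, Nfkb2 and Relb were higher, and Rel and Rela were not called. Nfkb2 (chr19:46304320-46312385, plus) encodes p100, the precursor of p52 in the non-canonical pathway, and its promoter printed above holds the κB motif close to the start. Its level was 63.7, 27.4 and 25.4 CPM in the LC tumors and 89.2, 103 and 100.2 CPM in the IP + LC tumors. LC replicate 1 was high for its group but still below every IP + LC tumor. The fitted level was 2.67-fold higher (log2 fold change 1.41, SE 0.33, adjusted p = 0.0143 by edgeR). Of the exonic bases of Nfkb2, 18.1% overlap Psd and a predicted gene on the opposite strand. Nfkb1 (chr3:135584655-135691547, minus), which encodes p105, the precursor of p50, was at 89.5, 95.6 and 73.7 CPM in the LC tumors and 139, 149 and 127 CPM in the IP + LC tumors, without overlap. Its fitted level was 1.61-fold higher (log2 fold change 0.69, SE 0.20, adjusted p = 0.0322 by edgeR). Relb (chr7:19606217-19629438, minus), the partner of p52, was at 24.1, 18.0 and 27.1 CPM in the LC tumors and 46.4, 39.7 and 34.9 CPM in the IP + LC tumors, also without overlap, and was 1.76-fold higher (log2 fold change 0.81, SE 0.24, adjusted p = 0.0364 by edgeR).

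Rela, the subunit p65 that carries the activation domain of the most common dimer, was at 79.2, 54.1 and 44.1 CPM in the LC tumors and 64.5, 76.5 and 83.5 CPM in the IP + LC tumors. LC replicate 1 lay within the IP + LC range, and the log2 fold change was 0.37 (95% interval -0.19 to 0.94, adjusted p = 0.302 by edgeR). Without LC replicate 1 it was 0.62 with an adjusted p of 0.0123. Rel, the subunit c-Rel of lymphocytes and macrophages, was at 12.1, 21.2 and 26.3 CPM in the LC tumors and 18.1, 32.7 and 29.0 CPM in the IP + LC tumors (log2 fold change 0.36, adjusted p = 0.446 by edgeR). The call of Nfkb1 was lost without LC replicate 3, IP + LC replicate 1 or IP + LC replicate 2 (adjusted p of 0.109, 0.101 and 0.13), and that of Relb without LC replicate 2, IP + LC replicate 1 or IP + LC replicate 2 (adjusted p of 0.156, 0.122 and 0.11). The call of Nfkb2 held in all 16 alternatives, with log2 fold changes from 1.17 to 1.89.

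A ratio of 2 genes in the same library does not depend on the scaling between libraries. Per 100 UMIs of Rela, Nfkb2 had 80.4, 50.7 and 57.7 UMIs in the LC tumors and 138, 135 and 120 UMIs in the IP + LC tumors. These ratios did not overlap between the groups. Nfkb1 had 113, 177 and 167 UMIs per 100 of Rela in the LC tumors and 216, 195 and 152 in the IP + LC tumors, and Relb had 30.4, 33.3 and 61.5 against 71.9, 51.9 and 41.7. Both of these overlapped. The ratios were chosen after the values were seen and are a description, and the smallest two-sided exact permutation p that 3 against 3 tumors allow is 0.1.

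Of the 5 genes of the IκB family, Nfkbie, Nfkbiz and Bcl3 were higher. Nfkbie (chr17:45555703-45563169, plus) encodes IκBε, an inhibitor that NF-κB itself induces and that holds RELA and c-Rel in the cytoplasm. It was at 34.4, 4.70 and 9.32 CPM in the LC tumors and 60.2, 79.4 and 58.8 CPM in the IP + LC tumors. All IP + LC tumors were above all LC tumors, and LC replicate 1 was the highest of the LC tumors. With 4.96-fold (log2 fold change 2.31, SE 0.51, adjusted p = 0.0118 by edgeR), this was the largest change among the tested members. The log2 fold change of Nfkbie was 3.26 without LC replicate 1, 1.76 without LC replicate 2 (adjusted p = 0.0555) and 2.04 without LC replicate 3 (adjusted p = 0.0518), so that its size rests on which LC tumors are used.

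Nfkbiz (chr16:55811375-55838899, minus) encodes IκBζ, a nuclear protein that works with p50 to switch on secondary response genes such as cytokines and antimicrobial proteins. Its level was 27.6, 21.9 and 27.1 CPM in the LC tumors and 58.0, 59.0 and 45.7 CPM in the IP + LC tumors, 2.15-fold higher without overlap (log2 fold change 1.10, SE 0.22, adjusted p = 0.00766 by edgeR). Bcl3 (chr7:19808462-19822770, minus), a nuclear IκB protein that binds p50 and p52, was at 48.2, 18.8 and 19.5 CPM in the LC tumors and 71.8, 59.5 and 64.6 CPM in the IP + LC tumors. The groups did not overlap, with LC replicate 1 nearest to the IP + LC tumors, and the fitted level was 2.45-fold higher (log2 fold change 1.29, SE 0.34, adjusted p = 0.0222 by edgeR). Its call was lost without LC replicate 2 (adjusted p = 0.113), which leaves the high LC replicate 1 beside only LC replicate 3.

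Nfkbia (chr12:55489410-55492647, minus) encodes IκBα, the inhibitor that is destroyed and made anew within each round of activation. It was at 167, 464 and 547 CPM in the LC tumors and 392, 441 and 478 CPM in the IP + LC tumors, which lay between the LC tumors. The log2 fold change was 0.15 (95% interval -0.70 to 0.99, adjusted p = 0.804 by edgeR), and without LC replicate 1 it was -0.20 (adjusted p = 0.243). The interval is wide, so a change in Nfkbia was neither shown nor excluded. Nfkbib, which encodes IκBβ, was at 70.6, 38.4 and 26.3 CPM in the LC tumors and 77.6, 76.5 and 63.2 CPM in the IP + LC tumors (log2 fold change 0.75, adjusted p = 0.117 by edgeR). Nfkbib was called without LC replicate 1 (log2 fold change 1.17, adjusted p = 0.000329 by edgeR), and 16.4% of its exonic bases overlap Sirt2 and Ccer2 on the opposite strand. Per 100 UMIs of Nfkbia, Nfkbie had 20.6, 1.01 and 1.71 UMIs in the LC tumors and 15.4, 18.0 and 12.3 UMIs in the IP + LC tumors. The ratios of Nfkbiz, Bcl3 and Tnfaip3 to Nfkbia had the same form, with LC replicates 2 and 3 at 3.21 to 4.96 and LC replicate 1 at 10.3 to 28.9, within or above the IP + LC tumors.

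**Figure D2:**
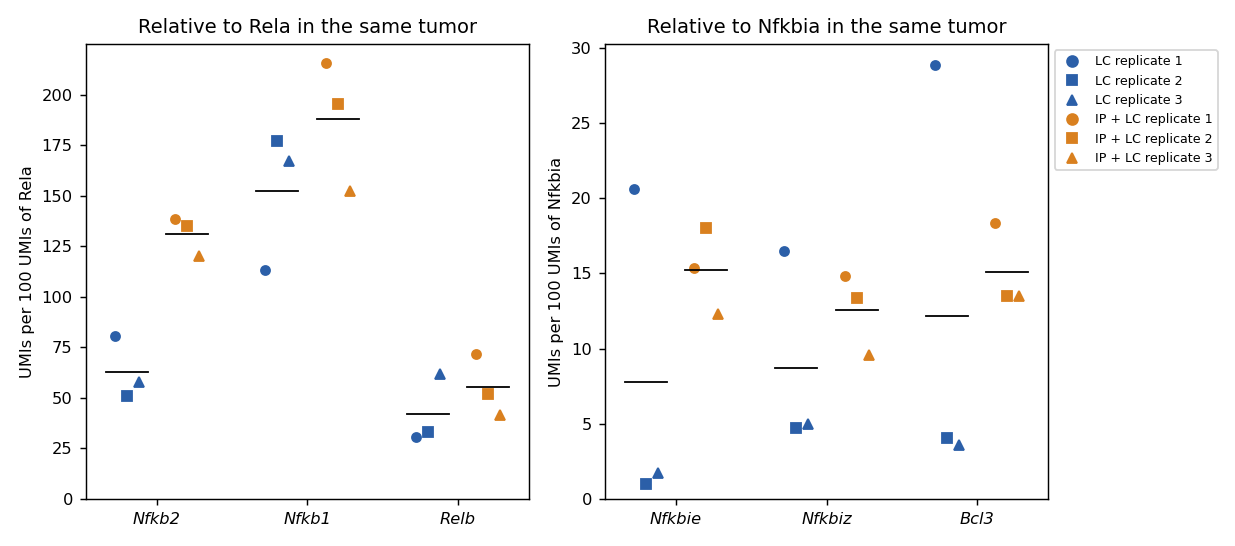
UMIs of each gene per 100 UMIs of Rela (left) or of Nfkbia (right) in the same tumor are plotted on the y axis for each of the 6 tumors, with a line at the mean of 3. The Nfkb2 ratios of the IP + LC tumors, 120 to 138, lie above those of the LC tumors, 50.7 to 80.4, and in the right panel LC replicate 1 (blue circles) lies apart from LC replicates 2 and 3.

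LC replicate 1 was the highest LC tumor in 8 of the 10 macrophage markers as well. The exceptions were Lyz2 and Mertk, the latter at 5.17, 31.3 and 43.2 CPM in the LC tumors and 13.1, 16.3 and 13.8 CPM in the IP + LC tumors (adjusted p = 0.161 by edgeR). C1qa, a complement gene of tissue macrophages, was at 568, 157 and 110.2 CPM in the LC tumors and 585, 791 and 733 CPM in the IP + LC tumors. Fcgr1, the high-affinity Fc receptor of monocytes and macrophages, was at 37.9, 18.0 and 14.4 CPM in the LC tumors and 110.2, 135 and 105 CPM in the IP + LC tumors. Both were higher in the IP + LC tumors (adjusted p of 0.0896 and 0.00162 by edgeR), and in both LC replicate 1 was the highest of the LC tumors, as it was for Nfkb2, Nfkbie and Bcl3. The summed macrophage list, in which Lyz2 prevails, went the other way, with 13263 to 15761 CPM in the LC tumors and 8045 to 9718 CPM in the IP + LC tumors. LC replicate 1 stood apart in other lists too. It had the lowest LC sums of endothelial (1076 against 1820 and 1579 CPM) and fibroblast markers (961 against 1583 and 1452 CPM). The same held for smooth muscle markers (591 against 945 and 812 CPM), whereas its type 1 alveolar and airway sums lay between those of the other LC tumors. The part of all these markers in the levels of the members was not tested.

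The feedback genes Tnfaip3 and Tnip1 were both higher. Tnfaip3 (chr10:19000910-19015657, minus) encodes A20, a ubiquitin-editing enzyme that ends NF-κB signaling. It was at 17.2, 14.9 and 21.2 CPM in the LC tumors and 40.6, 43.2 and 37.8 CPM in the IP + LC tumors, with a wide gap between the groups (2.27-fold, log2 fold change 1.19, SE 0.23, adjusted p = 0.0069 by edgeR). This was the smallest adjusted p among the members, and it was between 0.000419 and 0.0449 in the 16 alternatives. Tnip1 (chr11:54910785-54962917, minus), which encodes the A20-binding protein ABIN-1, was at 51.7, 40.0 and 32.2 CPM in the LC tumors and 72.5, 73.5 and 88.6 CPM in the IP + LC tumors. The groups did not overlap, and the fitted level was 1.93-fold higher (log2 fold change 0.95, SE 0.23, adjusted p = 0.0168 by edgeR).

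Tnf (chr17:35199381-35202007, minus), the cytokine that is both a target and an activator of NF-κB, was too low for the filter. It had 0, 3 and 0 UMIs in the LC libraries and 8, 13 and 12 UMIs in the IP + LC libraries, so that every IP + LC library held more than any LC library. The pooled rate was 8.49-fold higher, with an exact counting interval from 2.66 to 43.3 that leaves out the spread between tumors. When no filter was used, edgeR's quasi-likelihood test gave Tnf an adjusted p of 0.00948. That fit pooled the spread between tumors over genes, so this value cannot be set beside those of the main fit.

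**Figure D3:**
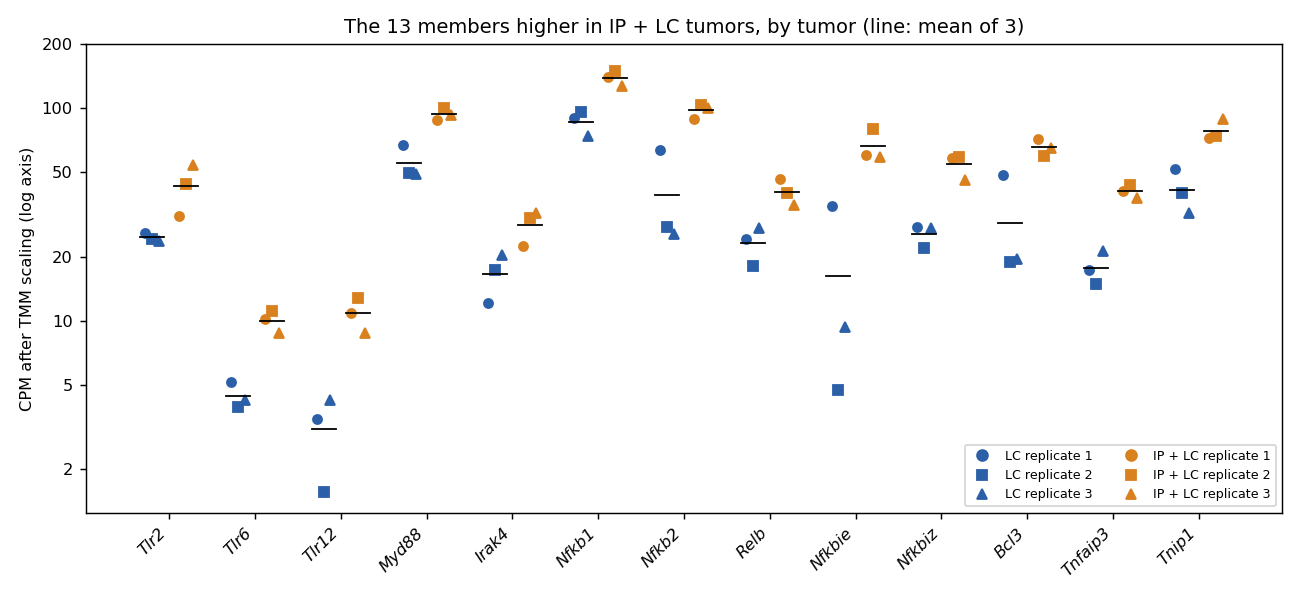
The level in CPM after TMM scaling, on a log axis, is plotted for the 13 higher members in each of the 6 tumors, LC in blue and IP + LC in orange, with the replicate as the shape and a line at the mean of 3. In every one of these genes the orange points lie above the blue points, and LC replicate 1 is the highest LC tumor for Nfkb2 (63.7 CPM), Nfkbie (34.4 CPM) and Bcl3 (48.2 CPM).

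In all, 15 of the 33 tested members were higher in every IP + LC tumor than in any LC tumor, against 21.6% of all genes tested, and none was lower in every IP + LC tumor, against 21.5%. The 15 were the 13 called members, Irak2 and Ikbkb. They include Tlr6 and Tlr12, for which the filter had fixed this in advance. The calls of Nfkb2, Nfkbie, Nfkbiz, Tnfaip3 and Tnip1 held in all 16 alternatives. So did that of Tlr12, which the filter had made certain to differ and for which this is no sign of stability. Leaving out LC replicate 2 gave 8 higher members, 7 of the 13 and Tnf. Leaving out IP + LC replicate 2 gave 7, and these were the lowest counts of any setting. Higher calls over all genes were lowest there too, with 1016 of 11530 and 897 of 11787 genes tested.

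Other genes of the pathway were counted from a list of 45, of which 40 were tested, 11 were higher and 3 were lower, with a median log2 fold change of 0.24, beside 16.8% higher and 19.6% lower among all genes tested. Of the 35 that passed the filter in every LC library, 8 were higher. Among 6 genes that carry TLRs or their ligands, Hsp90b1, Unc93b1 and Ap3b1 were higher and Cd36 and Lbp were lower. Hsp90b1, the chaperone that folds most TLRs, was at 809, 672 and 716 CPM in the LC tumors and 1991, 1676 and 1563 CPM in the IP + LC tumors (log2 fold change 1.25, adjusted p = 0.00374 by edgeR). Unc93b1, which escorts the nucleic acid sensing TLRs to endosomes, was at 119, 83.0 and 66.1 CPM in the LC tumors and 157, 176 and 147 CPM in the IP + LC tumors (log2 fold change 0.87, adjusted p = 0.0298). Ap3b1, a subunit of a sorting complex for endosomes, was higher as well (log2 fold change 0.69, adjusted p = 0.0746). Of the exonic bases of Hsp90b1, 15.7% overlap other annotated genes. The 2 lower genes bind ligands outside the signaling chain. Cd36, a scavenger receptor that assists TLR2 and is also abundant on lung endothelium and alveolar macrophages, fell by 2.39 on the log2 scale (adjusted p = 0.00239 by edgeR), and Lbp, the LPS-binding protein that feeds CD14, fell by 1.03 (adjusted p = 0.0114). All 6 endothelial and all 8 alveolar macrophage markers were lower beside Cd36, and their part in its level was not tested.

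Among 19 tested kinases, ligases and brakes near the receptors, 3 were higher and 1 was lower. The share higher, 15.8%, was near the 16.8% of all genes tested. Ikbke, an IKK-related kinase that NF-κB induces and that phosphorylates interferon regulatory factors, had 3, 8 and 3 UMIs in the LC libraries and 31, 38 and 29 UMIs in the IP + LC libraries, 4.67-fold higher (log2 fold change 2.22, adjusted p = 0.00331 by edgeR). Ikbke passed the filter only through the IP + LC libraries and so had to differ. Irf7 and Irf5, the transcription factors that MYD88 activates toward interferon and cytokine genes, had log2 fold changes of 1.74 (adjusted p = 0.00423) and 1.42 (adjusted p = 0.007), although 14.2% of the exonic bases of Irf5 overlap Tnpo3 on the opposite strand. Irf7 was at 58.5, 47.8 and 39.8 CPM in the LC tumors and 100.1, 200 and 180.1 CPM in the IP + LC tumors. The lower gene was Tollip, which restrains IRAK1 (log2 fold change -0.57, adjusted p = 0.0622 by edgeR), a call that was lost at a limit of 0.05.

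Among 15 tested genes of the TNF receptor, linear ubiquitin and non-canonical arms, 5 were higher (33.3%) and none was lower. The shares over all genes tested were 16.8% and 19.6%. Of the 12 that passed the filter in every LC library, 3 were higher. Among the 5 higher genes, the 4 with the smallest adjusted p were Rnf31, Traf2, Ripk1 and Tnip3. Rnf31, the catalytic subunit of the linear ubiquitin ligase, had 5, 8 and 8 UMIs in the LC libraries and 26, 36 and 29 UMIs in the IP + LC libraries (log2 fold change 1.53, adjusted p = 0.00685 by edgeR). Traf2, an adaptor of the TNF receptors, was 1.98-fold higher (log2 fold change 0.98, adjusted p = 0.0162), and Ripk1, a kinase recruited to the TNF receptor, was higher as well (log2 fold change 1.00, adjusted p = 0.0198). Tnip3, which like TNIP1 binds A20, was 2.34-fold higher (log2 fold change 1.22, adjusted p = 0.0377). Without LC replicate 1, 17 genes of the whole list were higher, and without LC replicate 2 or IP + LC replicate 2, 7 genes were higher. Over all genes tested, 3324 of 11748, 1016 of 11530 and 897 of 11787 were higher in these settings, in that order.

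Of 26 textbook target genes of NF-κB, 22 were tested, 11 were higher and 1 was lower, with a median log2 fold change of 0.99. The shares over all genes tested were 16.8% higher and 19.6% lower. Of these targets, 3 passed the filter through no LC library and so had to differ, and of the 13 that passed it in every LC library 5 were higher. Cxcl10, a chemokine of T cells that interferon also induces, was at 24.1, 3.92 and 11.9 CPM in the LC tumors and 242, 360 and 351 CPM in the IP + LC tumors (log2 fold change 4.75, SE 0.48, adjusted p = 0.000859 by edgeR). Ccl4, a chemokine of macrophages and lymphocytes, was at 8.61, 8.62 and 8.47 CPM in the LC tumors and 31.9, 39.7 and 48.7 CPM in the IP + LC tumors (log2 fold change 2.21, SE 0.28, adjusted p = 0.00137). Nos2, the inducible nitric oxide synthase, had 1, 3 and 2 UMIs in the LC libraries and 27, 86 and 23 UMIs in the IP + LC libraries (log2 fold change 3.83, SE 0.66), and the ratio of pooled UMIs had a counting interval from 7.83 to 48.5. Cxcl1, a chemokine of neutrophils, had 4, 5 and 4 UMIs in the LC libraries and 20, 49 and 40 UMIs in the IP + LC libraries (log2 fold change 2.45, SE 0.44). Nos2 and Cxcl1 passed the filter only through the IP + LC libraries and so had to differ, and their adjusted p-values of 0.00411 and 0.00494 (edgeR) carry that limit. In these 4 genes every IP + LC tumor was above every LC tumor. Neutrophil markers moved the other way, with 3 of 6 tested lower and sums of 808 to 1955 CPM in the LC tumors and 157 to 332 CPM in the IP + LC tumors.

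The 10 targets that were not called included Il6, with 7, 2 and 3 UMIs in the LC libraries and 25, 19 and 10 UMIs in the IP + LC libraries (adjusted p = 0.115 by edgeR), and Icam1, with a log2 fold change of 0.10 (95% interval -0.68 to 0.88). These 2 were chosen after their values were seen. Gadd45b, a stress gene that restrains cell death, was lower (log2 fold change -0.68, SE 0.25, adjusted p = 0.0782 by edgeR), at 63.7, 67.4 and 102 CPM in the LC tumors and 42.8, 43.8 and 60.3 CPM in the IP + LC tumors. Its call was lost without LC replicate 2 or 3 and without IP + LC replicate 1 or 2. The κB motif was in the RefSeq windows of 8 of 21 targets with a window, of which 4 were higher, beside 3 of the 13 without the motif. Among 38 other pathway genes with a window the order was the reverse, with 1 of 6 higher with the motif and 9 of 32 without it. Among all tested genes with a window these shares were 18.6% and 17.0%, whereas the counts of targets and pathway genes were not limited to tested genes.

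**Figure D4:**
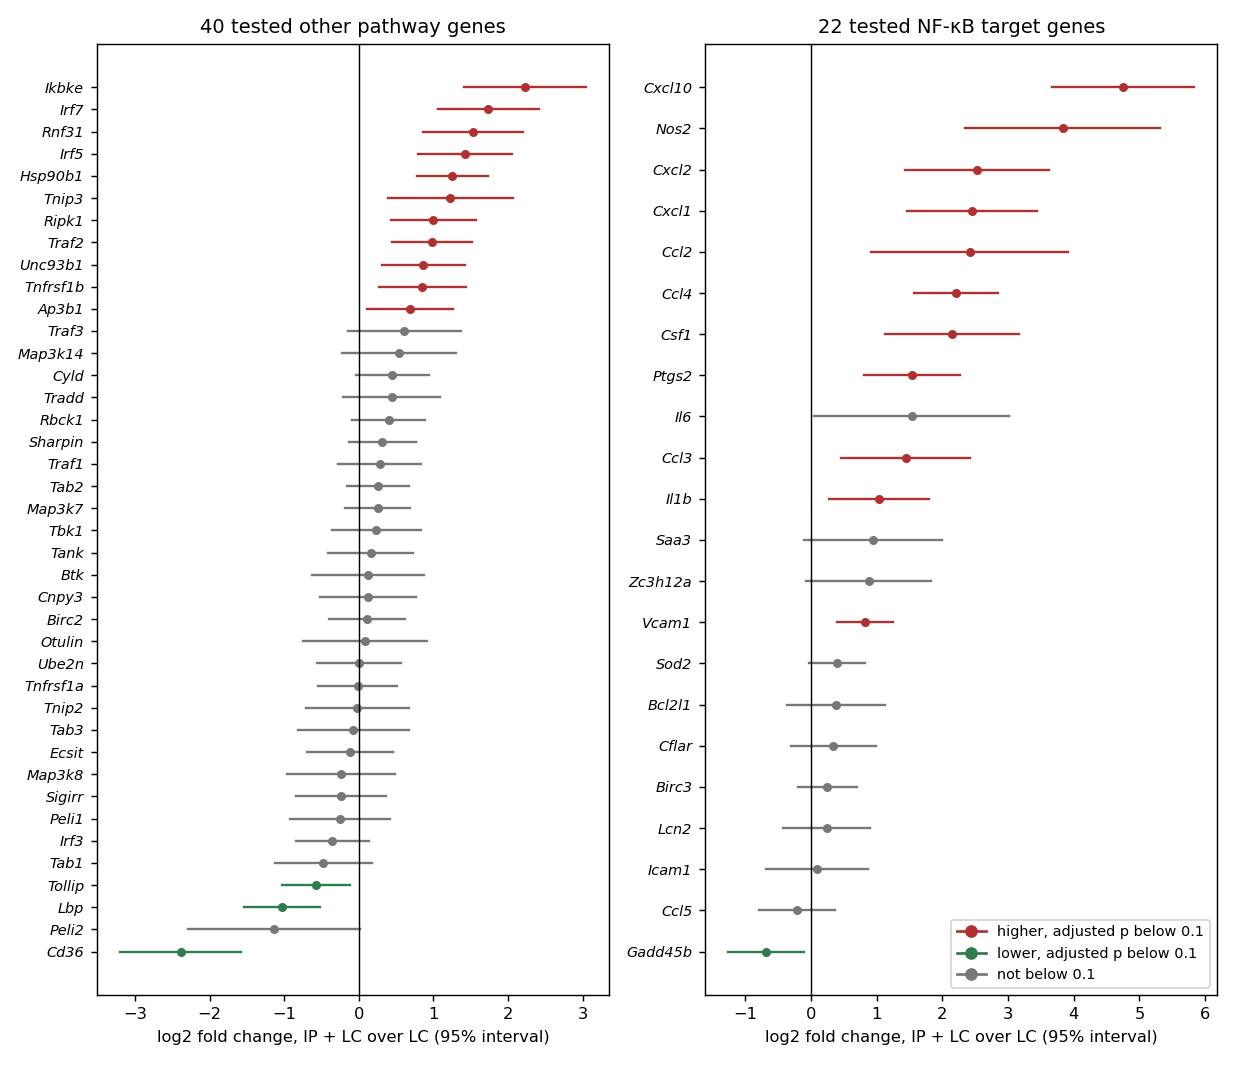
The log2 fold change of IP + LC over LC is plotted on the x axes, with its 95% interval, for 40 tested genes of the wider pathway (left) and 22 tested NF-κB targets (right), each sorted from the highest to the lowest. Red marks the 11 higher genes of either panel, from 4.75 for Cxcl10 to 0.69 for Ap3b1, and green the lower genes, which are Cd36, Lbp and Tollip on the left and Gadd45b on the right.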

How the data were processed

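Libraries for 3 LC and 3 IP + LC tumors were made with 180 ng of total RNA per library and an oligo-dT primer that carries a UMI of 10 nucleotides. The authors extracted UMIs with UMI-tools 1.1.1, trimmed with Trim Galore 0.6.7, aligned to GRCm38 with HISAT2 2.2.1, assigned reads with featureCounts 2.0.1 and deposited the counts of different UMIs for each gene, not normalized and with a table for every tumor. Which annotation release was used and whether strand was read are not given in the sources used here. UMIs tag the 3′ end, so levels of different genes are not compared and a ratio of genes is set only against the same ratio in other tumors. The exact intervals of pooled UMIs and the limit of 3 UMIs cover counting error only, whereas edgeR's 95% intervals of log2 fold changes include the spread between tumors.

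From the counts, genes were kept by filterByExpr (minimum count 10, minimum total 15), scaled by TMM (factors 0.905 to 1.07) and tested with edgeR 4.0.16 in R 4.3.3 by the quasi-likelihood test without a block, with Benjamini-Hochberg adjustment over all 11240 genes tested and the study's limit of 0.1. CPM refers to the UMIs on tested genes after TMM scaling. The fits were tested on simulated data. The members and lists were chosen with earlier results of these data known, and the promoter search and the ratios within a library after the values were seen. Values per tumor are given for called members, for Tlr genes and untested members with over 3 UMIs, and for others where useful. From each other list the 4 called genes with the smallest adjusted p in each direction are named. The alternatives were other scalings and filters, DESeq2 1.42.0, limma 3.58.1 voom, robust edgeR, a replicate block, a limit of 0.05 and each tumor left out. Nothing in the labels says whether the 3 tumors of a group came from separate experiments, so the p-values measure the spread between these tumors. Positions are those of GENCODE M21 (GRCm38), which holds each of the 31130 identifiers, and promoters those of RefSeq. Csf3 of the target list was not analysed here.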

Additional observations from a re-analysis of the deposited data

How the results depend on the processing

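The number of higher members was 13, with a range of 7 to 18 when 1 tumor was left out, and no member was lower in any of the 16 alternatives. Of 13 called members, 6 kept their call in all alternatives, among them Tlr12, which passed the filter only through the IP + LC libraries. Over all genes 4088 were called (46.1% of them higher), 2265 to 6691 with 1 tumor left out, and scaling by library size alone gave 58.3% higher calls, 17 higher members and a median log2 fold change of 0.176. DESeq2 gave 10 higher members, without Irak4, Tlr2 and Tlr6. Irak4 also lost its call with upper quartile scaling, with a stricter filter and at a limit of 0.05, and Tlr6 without a filter. Nfkbib gained a call with library size alone, without a filter and with voom, and library size alone also gained Ikbkb, Irak2 and Tlr13. For the wider pathway list, 7 to 17 genes were higher and 2 to 5 lower with 1 tumor left out. Its 3 lower genes became 2 with library size alone, without a filter, with DESeq2, with the replicate block and at a limit of 0.05. The single lower NF-κB target, Gadd45b, was lost with library size alone, without a filter, with DESeq2 and at a limit of 0.05 (0 lower targets each), and with 1 tumor left out the count was 0 to 1.

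Members that changed sign were not called in either setting. Chuk had log2 fold changes of -0.0032 with DESeq2 size factors, -0.051 with upper quartile scaling, -0.055 with at least 10 UMIs in every library of a group, -0.0034 with DESeq2's test and -0.0014 with voom. Traf6 had 0.14 with library size alone, 0.086 without a filter and 0.0075 with a replicate block, and Ikbkg had 0.065 and 0.017 in the first and second of these. With 1 tumor left out, the lowest and highest values were -0.064 and 0.16 for Chuk, -0.25 and 0.18 for Traf6, -0.16 and 0.0086 for Ikbkg, -0.20 and 0.43 for Nfkbia, -0.69 and 0.0059 for Tlr7 and -0.042 and 0.46 for Ticam1. The cause was not tested.

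The titles give both groups replicates 1 to 3. Deviations of tumors with the same number correlated at 0.026, -0.12 and 0.112 across genes, and those with different numbers at -0.142 to 0.126. With 3 tumors per group, these values cannot decide whether the numbers pair the tumors. A fit with the replicate block called 13 members higher, 12 of them shared, with Nfkbib gained and Tlr6 lost, and 3410 genes in all. Depth limits Tlr5, Tlr8, Tlr9, Ticam2 and Tnf, which did not pass the filter.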
